A study of Oryza sativa with 6 samples.

Results

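The transcripts described here are those of genes carried by the chloroplast and mitochondrial genomes of rice (Oryza sativa). They are all 45 of the 27397 rows of the deposited table of normalized reads whose identifier starts with "gene-". The rule uses no measured value, but it was chosen with earlier results of these data known. Matching the gene symbol in the identifier to RefSeq (assembly ASM3414082v1) placed 25 in the mitochondrial genome and 15 in the plastid genome. The other 5, rpl2-2, rps19-2, rps3, rps4 and rps7-3, are ribosomal protein genes whose symbols occur in both genomes, so their organelle is unresolved. The tested plants were of pine1-1a, a knockout line in the Nipponbare background, and the plants they were compared with were wild-type Nipponbare, with 3 libraries each. Every library came from 8 pooled plants, grown in 16 h days and cut at 20 days after germination to about 1 cm at the base, with stem and shoot apical meristem. No treatment was given, and the line is 1 allele. Separate sowings are not named, so the spread that a p-value measures here is that between these pools and may be technical.

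Plant organelles keep small genomes that encode core subunits of photosynthesis and respiration together with parts of their own gene expression machinery, while most subunits of the same complexes are encoded in the nucleus. Plastid genes are read by a plastid-encoded RNA polymerase, whose core is made from the rpo genes, and by a nuclear-encoded phage-type polymerase; mitochondrial genes are read by phage-type polymerases alone. Most mature organelle transcripts carry no poly(A) tail, and in organelles a tail marks RNA for breakdown. The libraries were made from RNA enriched with oligo(dT) beads, per the labels' protocols. The levels given here thus cover only organelle RNA that passed this step. They are not the organelles' RNA content. They also depend on how reads with several matches were treated, which no source used here gives.

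Recovered reads came to between 27918842 and 36250239 per library. PINE1 itself (Os12g0617000, chromosome 12) had 5199, 5044 and 4173 normalized reads in pine1 replicates 1 to 3, against 3569, 3674 and 2943 in wild type replicates 1 to 3. Its RNA was thus higher in the libraries labelled pine1 (log2 fold change 0.50, SE 0.10, limma adjusted p = 0.021). With 1 library left out, the adjusted p missed the threshold for pine1 replicate 1 (0.0585), pine1 replicate 2 (0.0728), wild type replicate 1 (0.0515) and wild type replicate 3 (0.0560). The sources used here do not give what the mutation does to the RNA, so this level does not check the labels. The KNOX genes OSH1 and OSH15, which mark the meristem, averaged 931 and 1610 normalized reads in pine1 and 381 and 763 in wild type, so RNA of the labelled tissue was read in both genotypes. Both rose in pine1 (limma adjusted p = 0.0032 for OSH1), and the part of this in the values below was not tested.

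The 45 organelle-encoded rows took a very small part of the reads recovered from every library, and this part did not separate the genotypes. Organelle genes outside these rows, rbcL among them, are not counted in it. The 45 rows held 9019 of 188370824 reads, or 0.00479%. Scaled to 1000000 reads of the library (RPM), they took 51.5, 39.3 and 49.0 RPM in pine1 replicates 1 to 3, against 55.6, 49.1 and 44.0 RPM in wild type replicates 1 to 3. The ranges overlapped, with the lowest library, pine1 replicate 2, and the highest, wild type replicate 1, at their ends. Exact 95% binomial intervals were 37.1 to 41.5 RPM for the lowest library and 52.9 to 58.4 for the highest, and within each genotype the intervals of the highest and lowest library did not overlap, so counting error is not the whole spread. The log2 difference between the genotypes was -0.09 (pine1 minus wild type; two-sided exact permutation p = 0.60, where 3 against 3 libraries cannot give less than 0.10). Without pine1 replicate 2 it was 0.03. In pooled tissue, fewer cells of a type and less RNA per cell cannot be told apart.

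The mitochondrial rows took 28.1, 20.7 and 27.5 RPM in pine1 replicates 1 to 3, against 32.2, 26.6 and 24.8 in wild type replicates 1 to 3 (log2 difference -0.14, exact permutation p = 0.60; 0.0032 without pine1 replicate 2). The plastid rows took 10.5, 8.03 and 7.81 RPM in pine1, against 9.27, 10.1 and 7.78 in wild type (log2 difference -0.05, exact permutation p = 1.00), a difference that turned above 0 without pine1 replicate 2 (0.0091), pine1 replicate 3 (0.03) or wild type replicate 2 (0.04). Neither organelle separated the genotypes. Another class of RNA that largely lacks a poly(A) tail, the 151 rows with ENSRNA or EPlORY identifiers, took 159, 147 and 145 RPM in pine1, against 169, 167 and 162 in wild type. These values did not overlap and were lower in pine1. Their part in the organelle values was not tested.

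**Figure D1:**
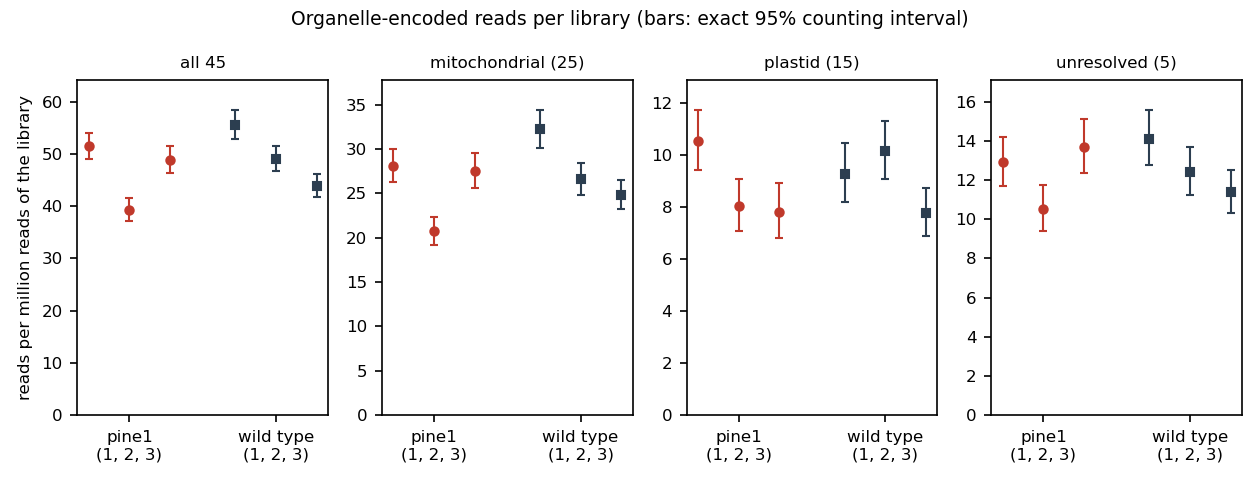
Reads of organelle-encoded rows in RPM, the reads scaled to 1000000 reads of the library (vertical axis, from 0), for all 45 rows and for the mitochondrial, plastid and unresolved rows. Circles are pine1 libraries and squares wild type libraries, each in the order of replicates 1 to 3, and bars are exact 95% counting intervals. In every panel the ranges of the genotypes overlap.

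The levels of the members covered a wide range, in much the same order in both genotypes. Mean normalized reads ranged from 2.07 for orf241 to 189 for cob, with 19 members under 10, 15 from 10 to 50 and 11 at 50 or more. The median over members was 18.0, against 318 over all 27397 rows, and cob, the member with the most reads, ranked 15846th in the table. Spearman's rho over the 45 members was 0.935 between the genotype means. It was 0.894 to 0.942 between replicates of a genotype and 0.855 to 0.951 between libraries of different genotypes; these are descriptions across genes, which are not independent. In 7 members a library had 0 reads.

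**Figure D2:**
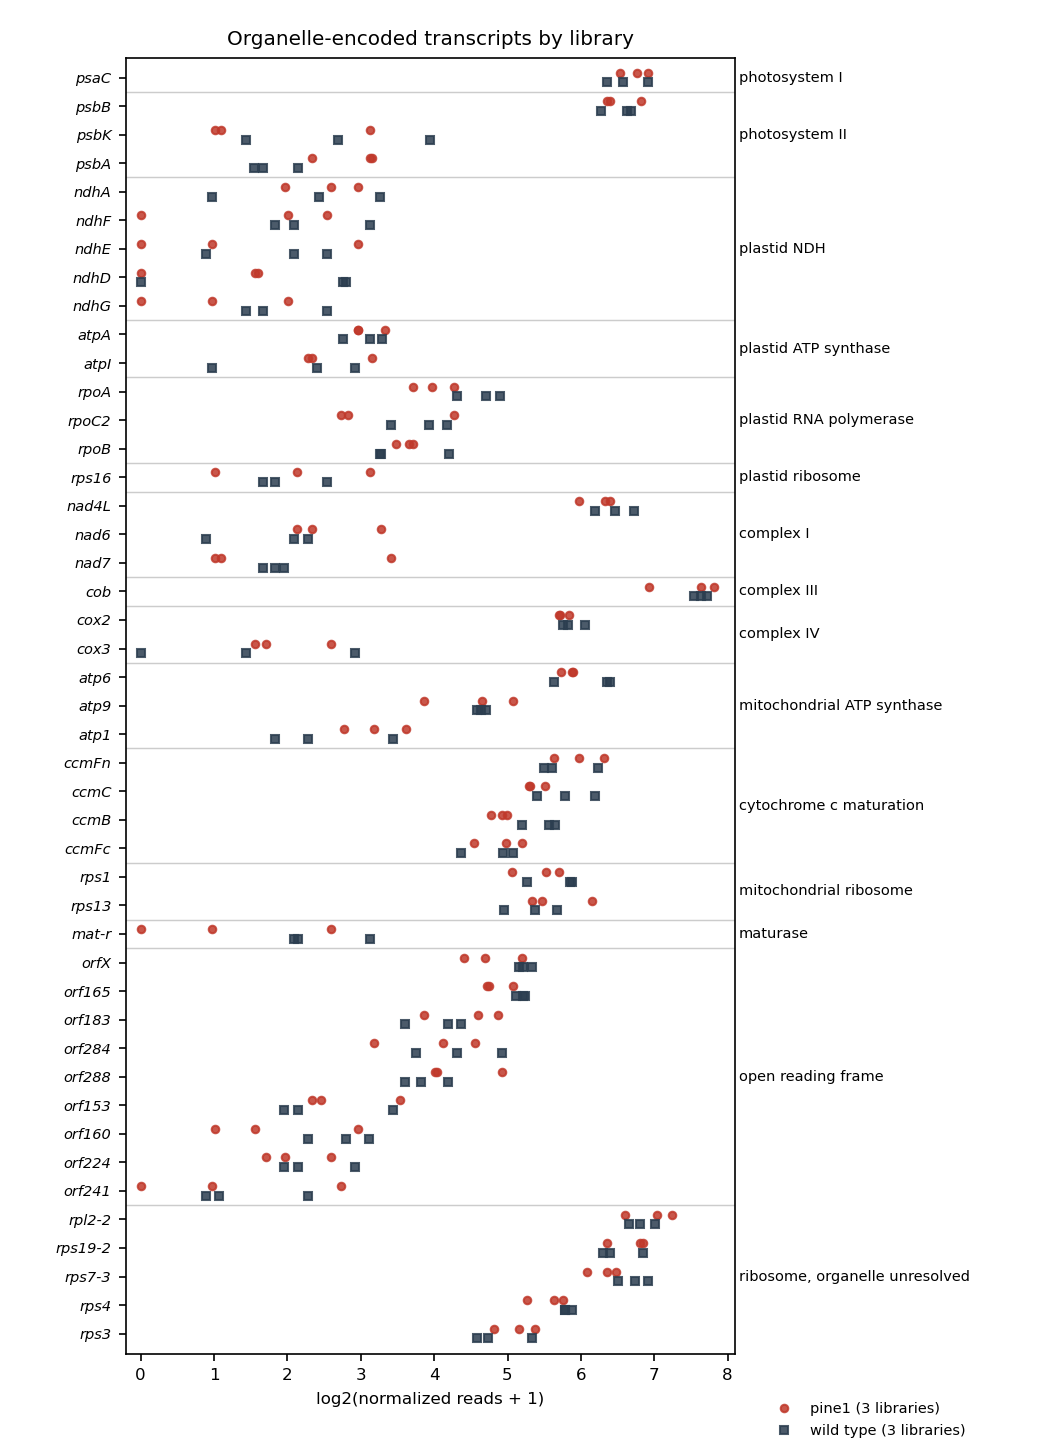
Level of each of the 45 organelle-encoded transcripts in each library, as log2(normalized reads + 1), grouped by complex. Circles are the 3 pine1 libraries and squares, drawn just below them, the 3 wild type libraries. In 39 of 45 rows the genotypes overlap.

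No organelle-encoded transcript changed between the genotypes by the test used. Of the 45 members, 26 passed a filter on low reads and were tested together with all other genes by limma on log2(normalized reads + 1), and 19 with 12 to 45 reads in all were not tested. Among the 26, 0 rose and 0 fell at an adjusted p under 0.05, where 4.02% of 24149 genes tested rose and 2.44% fell (6.46% in either direction). At an unadjusted limma p under 0.05 there were 2, against 20.9% of all genes tested. EdgeR and DESeq2 on the recovered reads called 0 of the 26 as well, with 2 and 0 at an unadjusted p under 0.05. Over all genes tested, edgeR called 979 higher and 589 lower of 24149, and DESeq2 1177 and 799 of 24146. Limma with no filter called 0 of the 45, with 3 at an unadjusted p under 0.05. It called 986 higher and 604 lower of 27397 rows. The authors' deposited table of 1962 genes, beside 27397 rows of normalized reads, holds 0 of the 45. Log2 fold changes ran from -0.65 to 0.46, with a median of -0.15, against -3.6e-05 over all genes tested. They were below 0 in 16 of the 26, against 12075 of the 24149 genes tested.

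The precision behind these values was low. The 95% intervals of the 26, before adjustment, reached from 0.40 to 1.08 on the log2 scale on each side of the estimate. Their median reach was 0.56. A difference smaller than its interval's reach could not be told from 0. A larger one could still miss the adjusted threshold, as ccmB did (log2 fold change -0.57, reach 0.51). Within genotypes the reads of a member varied with a median chi-square of 1.96 per degree of freedom, where counting error alone gives about 1, against 1.69 in 11201 other rows with as many reads. Cob varied most, at 8.41. The genotypes' values did not overlap in 1 member with pine1 above (2.22%, against 13.0% of all rows). They also did not overlap in 5 with pine1 below (11.1%, against 12.3% of all rows). Counted over all members, tested or not, neither share stood above the background. All 5 with pine1 below were among the 26 tested, against 12.9% of all genes tested. Of the 26, 0 had pine1 above, against 13.5% of all genes tested. Among tested members the share below was thus higher than the background, and that above lower. Whether either difference exceeds chance was not tested.

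**Figure D3:**
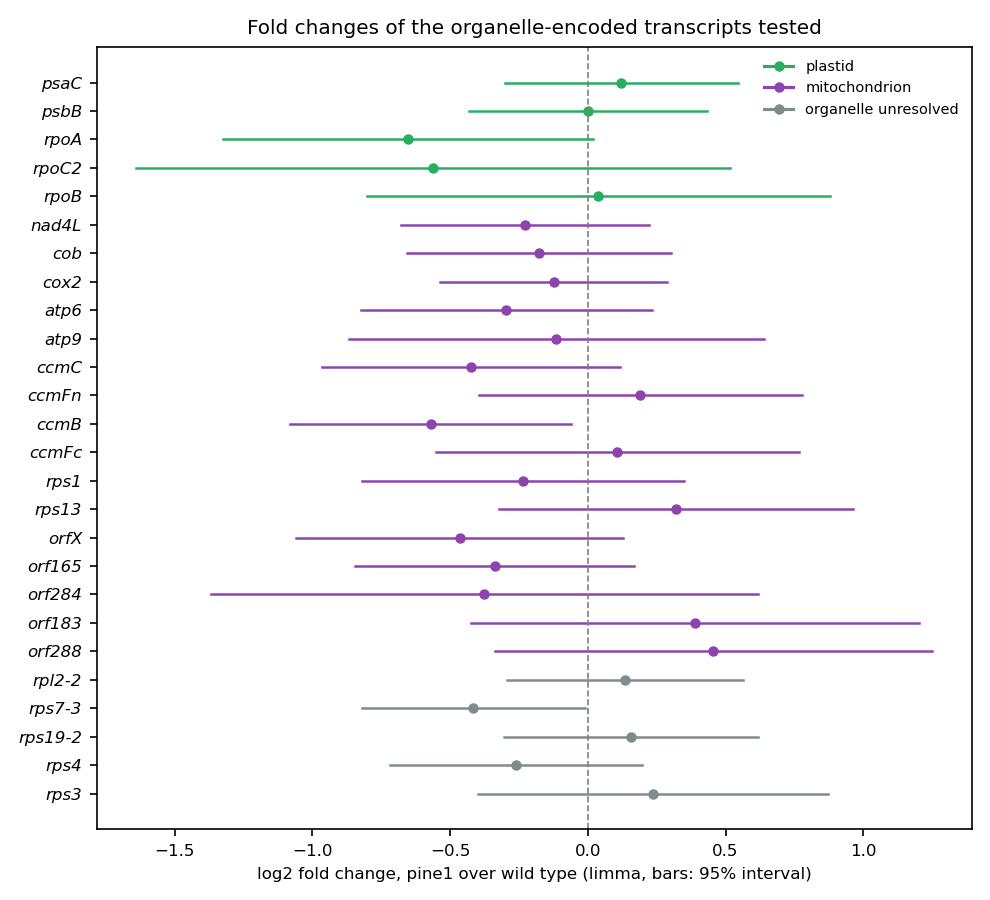
Log2 fold change of pine1 over wild type (horizontal axis) for the 26 members tested, with 95% intervals from limma, coloured by organelle. All estimates lie between -0.65 and 0.46, and the intervals of ccmB and rps7-3 alone leave out 0, before adjustment.

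Among plastid genes of photosynthesis, 2 were read well enough to be tested. PsaC, which encodes the photosystem I subunit that binds its terminal iron-sulphur clusters, had 120, 108 and 91.4 normalized reads in pine1 replicates 1 to 3, against 93.9, 120 and 81.2 in wild type replicates 1 to 3. These ranges overlapped almost fully (log2 fold change 0.12, 95% interval -0.30 to 0.55, adjusted p = 0.77). PsbB encodes CP47, an inner antenna protein of photosystem II. It had 112, 80.8 and 83.5 normalized reads in pine1, against 102, 98.0 and 76.1 in wild type, and its means, 92.1 ± 17.3 in pine1 and 91.9 ± 13.8 in wild type (SD, n = 3 each), were nearly equal (log2 fold change -0.00078, 95% interval -0.43 to 0.43, adjusted p = 1.00).

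PsbA encodes D1, the reaction centre protein of photosystem II that is replaced fastest in light, and in green leaves its RNA is among the most abundant of the plastid. Here it had 8, 4 and 7 reads in pine1 replicates 1 to 3, against 2, 2 and 4 in wild type replicates 1 to 3. With normalization this was 7.73, 4.04 and 7.90 in pine1 against 2.18, 1.92 and 3.42 in wild type, and psbA was the 1 member in which all pine1 values lay above all wild type values. It was too low for the filter; without the filter its log2 fold change was 1.08 (95% interval 0.02 to 2.15, limma adjusted p = 0.24). PsbK, a small photosystem II subunit, averaged 3.29 ± 3.85 normalized reads in pine1 and 7.20 ± 6.53 in wild type (SD, n = 3 each) and was not tested.

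The 5 ndh genes encode membrane subunits of the plastid NDH complex, which carries electrons around photosystem I. All 5 were too low to be tested. Their summed level was 11.6, 13.1 and 13.5 normalized reads in pine1 replicates 1 to 3, against 13.1, 24.0 and 19.7 in wild type replicates 1 to 3. Only wild type replicate 1 lay within the range of pine1 (log2 difference -0.53, exact permutation p = 0.30, 0.96 adjusted over 11 complexes). NdhA, with the most reads of the 5, had 2.90, 5.05 and 6.77 in pine1, against 4.37, 0.96 and 8.55 in wild type. AtpA and atpI, subunits of the plastid ATP synthase, summed to 12.8 ± 2.04 normalized reads in pine1 and 11.3 ± 4.32 in wild type (SD, n = 3 each). AtpA, with more reads than atpI, had 6.76, 9.09 and 6.77 in pine1, against 8.74, 5.77 and 7.69 in wild type.

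Of the plastid gene expression machinery, rpoA, rpoB and rpoC2 encode subunits of the plastid RNA polymerase. RpoA had 18.4, 12.1 and 14.7 normalized reads in pine1 replicates 1 to 3, against 25.1, 28.8 and 18.8 in wild type replicates 1 to 3. All pine1 values lay below all wild type values, by a small margin, and rpoA had the lowest fold change of the members tested (log2 -0.65, 95% interval -1.32 to 0.02, adjusted p = 0.26). RpoB averaged 11.3 ± 1.02 in pine1 and 11.6 ± 5.12 in wild type (SD, n = 3 each). RpoC2 had 18.4, 6.06 and 5.64 in pine1, against 14.2, 9.61 and 17.1 in wild type, and overlapped too. The sum over the 3 genes was 48.3, 30.3 and 30.5 in pine1, against 56.8, 47.1 and 44.5 in wild type, with pine1 replicate 1 inside the wild type range (log2 difference -0.47, exact permutation p = 0.30, adjusted 0.96). Rps16, a protein of the small ribosomal subunit, had 7.73, 1.01 and 3.38 in pine1, against 2.18, 4.81 and 2.56 in wild type.

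Textbooks divide plastid genes into photosynthesis genes, read mainly by the plastid-encoded polymerase, and housekeeping genes, several of which are read mainly by the nuclear-encoded one. The summed level of psaC, psbA, psbB and psbK over that of rpoB, rpoC2 and rps16 was 6.56, 10.1 and 9.59 in pine1 replicates 1 to 3, against 6.0, 10.2 and 5.76 in wild type replicates 1 to 3. The ratio did not separate the genotypes (log2 difference 0.29, two-sided exact permutation p = 0.40), and with 1 library left out the difference ran from 0.14 without wild type replicate 3 to 0.55 without wild type replicate 2.

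Among respiratory genes, cob had the most reads of all members in every library, with no account taken of gene length. It encodes apocytochrome b of complex III and had 224, 120 and 197 normalized reads in pine1 replicates 1 to 3, against 210, 185 and 198 in wild type replicates 1 to 3. Pine1 replicate 2 stood far below the other 5 libraries, which lay close together (log2 fold change -0.18, 95% interval -0.66 to 0.30, adjusted p = 0.70; 0.09 without pine1 replicate 2). That library also had the lowest value of its genotype in 25 of the 45 members. Among wild type libraries, replicate 3 was lowest in 21 members, replicate 2 in 19 and replicate 1 in 5. The same counts over all rows were not made, so these do not set organelle rows apart from others. Nad4L, a small membrane subunit of complex I, had 79.2, 61.6 and 83.5 in pine1, against 105, 87.5 and 71.8 in wild type, which overlapped (log2 fold change -0.23, adjusted p = 0.57). Nad6 and nad7, of the same complex, averaged 5.37 ± 2.90 and 3.93 ± 4.96 in pine1 and 2.66 ± 1.59 and 2.54 ± 0.35 in wild type (SD, n = 3 each) and were not tested.

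Cox2, a catalytic subunit of cytochrome c oxidase that takes electrons from cytochrome c, had 51.2, 51.5 and 56.4 normalized reads in pine1 replicates 1 to 3, against 65.5, 55.7 and 53.0 in wild type replicates 1 to 3 (log2 fold change -0.12, 95% interval -0.53 to 0.29, adjusted p = 0.76). Its partner cox3 had 17 reads in all 6 libraries together. Atp6, which forms part of the proton channel of the mitochondrial ATP synthase, had 58.0, 58.6 and 51.9 in pine1, against 80.8, 83.6 and 48.7 in wild type. Wild type replicate 3 was the lowest of the 6 libraries and the other wild type libraries the highest (log2 fold change -0.30, adjusted p = 0.53). Atp9, the ring subunit, averaged 23.5 ± 9.61 in pine1 and 24.0 ± 1.03 in wild type, and atp1, the alpha subunit, 8.39 ± 2.75 in pine1 and 5.41 ± 3.88 in wild type (SD, n = 3 each).

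The 4 ccm genes encode parts of the machinery that attaches heme to c-type cytochromes, and all 4 were tested. CcmB had 30.9, 26.3 and 29.3 normalized reads in pine1 replicates 1 to 3, against 49.1, 35.6 and 46.2 in wild type replicates 1 to 3. All pine1 values lay below all wild type values, and ccmB had the smallest adjusted p of all members (log2 fold change -0.57, 95% interval -1.08 to -0.06, adjusted p = 0.19, unadjusted p = 0.032). CcmFn, with the most reads of the 4, had 78.3, 48.5 and 62.0 in pine1, against 74.3, 44.2 and 47.9 in wild type (log2 fold change 0.19, adjusted p = 0.74). CcmC and ccmFc had log2 fold changes of -0.42 and 0.11. The sum over the 4 was 162 ± 27.01 in pine1 and 182 ± 40.7 in wild type (SD, n = 3 each; log2 difference -0.16, exact permutation p = 0.60, adjusted 0.96).

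The mitochondrial ribosomal protein genes rps1 and rps13 overlapped between genotypes. Rps1 had 51.2, 32.3 and 45.1 normalized reads in pine1 replicates 1 to 3, against 56.8, 57.7 and 37.6 in wild type replicates 1 to 3 (log2 fold change -0.24, adjusted p = 0.67), and rps13 had a log2 fold change of 0.32 (adjusted p = 0.58). Mat-r, which encodes an intron maturase and lies inside an intron of another mitochondrial gene in plants, had 0.97, 5.05 and 0 in pine1, against 3.28, 7.69 and 3.42 in wild type, and was not tested.

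The 9 open reading frames of the mitochondrial genome are named by number or letter alone. Orf288 and orf183 had the highest fold changes of the members tested. Orf288 had 15.5, 15.2 and 29.3 normalized reads in pine1 replicates 1 to 3, against 13.1, 17.3 and 11.1 in wild type replicates 1 to 3 (log2 fold change 0.46, 95% interval -0.34 to 1.25, adjusted p = 0.52). Orf183 had 13.5, 23.2 and 28.2 in pine1, against 19.7, 17.3 and 11.1 in wild type (log2 fold change 0.39, adjusted p = 0.60). In both, 1 or 2 pine1 libraries were high and the rest lay among the wild type values. OrfX had 35.7, 20.2 and 24.8 in pine1, against 39.3, 34.6 and 35.9 in wild type (log2 fold change -0.47, adjusted p = 0.36). Orf165 was lower in all pine1 libraries, at 28.0 ± 4.2, than in wild type, at 35.5 ± 1.63 (SD, n = 3 each; log2 fold change -0.34, adjusted p = 0.44). It overlaps orf284 in RefSeq, so reads of the pair may have been shared or dropped in counting. Orf153, orf160, orf224 and orf241 had 12 to 35 reads in all and were not tested, and the genotypes overlapped in each.

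All 5 ribosomal protein genes of unresolved organelle were tested, and rpl2-2, a protein of the large subunit, had the most reads after cob. Rpl2-2 had 130, 96 and 150 normalized reads in pine1 replicates 1 to 3, against 128, 111 and 100 in wild type replicates 1 to 3 (log2 fold change 0.14, 95% interval -0.29 to 0.56, adjusted p = 0.75). Rps7-3 was lower in all pine1 libraries, with 66.7, 87.9 and 81.2 in pine1, against 120, 106 and 89.8 in wild type, and rps4 was too, at 46.3 ± 8.09 in pine1 and 55.2 ± 2.34 in wild type (SD, n = 3 each). Neither passed (rps7-3, log2 fold change -0.42, 95% interval -0.82 to -0.01, adjusted p = 0.23; rps4, log2 fold change -0.26, adjusted p = 0.52). Rps19-2 and rps3 overlapped, with log2 fold changes of 0.16 and 0.24. Rpl2 and rps7 are each listed more than once in the RefSeq plastid genome, and plant nuclear genomes hold copies of organelle DNA, so reads of such genes can be split between copies and their levels are uncertain.

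Levels can be compared between genes only per length, and for 40 members RefSeq gives a gene length, introns included. On the scale of mean normalized reads per kb, psaC was highest at 416, followed by nad4L at 269, cob at 158, rps13 at 130 and atp9 at 106. The lowest was nad7 at 0.54, a gene with introns. Of the 15 plastid members, psaC, psbB and psbK were above 20 per kb, and psbA stood at 4.27.

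Genes that follow each other in RefSeq order were alike in some pairs and far apart in others on this scale. Neighbours here are protein genes next to each other in that order at any distance, with no account taken of strand. Orf183 and orfX lie 16387 bp apart, and nad7 and orf288 lie 50294 bp apart. Over the 20 pairs of members that are neighbours in RefSeq, the higher level was a median of 9.26 times the lower, from 1.15 times for orf183 and orfX to 239 times for ndhD and psaC, and 10 pairs were at least 10 times apart. In the RefSeq order of the plastid genome ndhD, psaC, ndhE and ndhG follow each other, and their levels were 1.74, 416, 9.08 and 3.99 mean normalized reads per kb. Likewise nad4L, orf241 and cob follow each other in the mitochondrial genome with 269, 2.85 and 158, while ccmC and orf183, also neighbours, had 66.5 and 34.1. How the oligo(dT) step and the treatment of reads with several matches acted on each transcript was not tested.

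**Figure D4:**
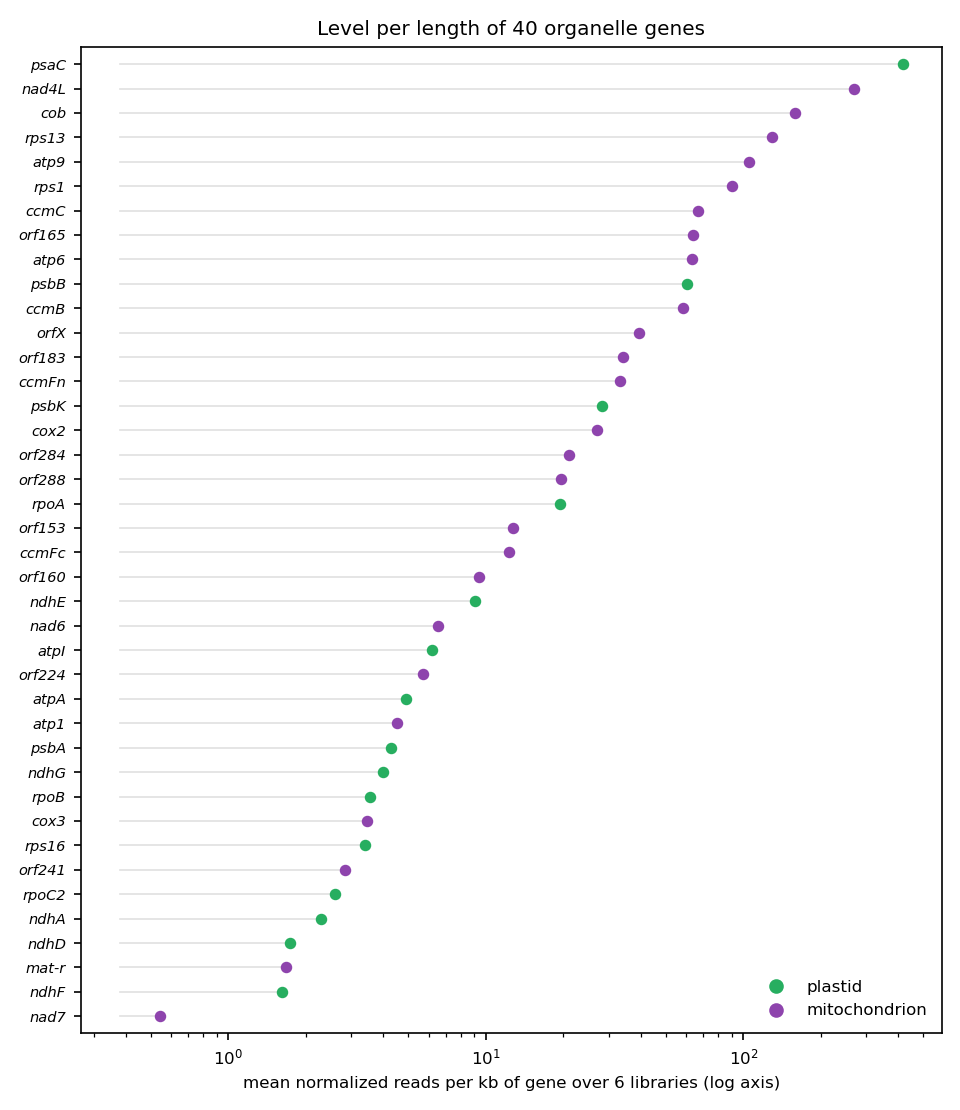
Mean normalized reads per kb of gene over the 6 libraries (horizontal log axis) for the 40 members with 1 RefSeq match, coloured by organelle and ordered by level. PsaC, nad4L and cob are highest, and nad7 is lowest.

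Many nuclear genes of the photosystems and their antennae rose. The list of loci was written with earlier results of these data known. Of 33 nuclear loci of photosystems, antennae, electron carriers, plastid ATP synthase and Rubisco that were tested, 18 rose, 0 fell and 15 did not pass, with a median log2 fold change of 0.27 against -3.6e-05 over all genes tested, of which 4.02% rose and 2.44% fell. The photosystem I group rose in 12 of 13 loci and that of photosystem II in 5 of 12. The group of electron carriers and plastid ATP synthase rose in 0 of 4, with log2 fold changes of -0.03 to 0.27, and Rubisco in 1 of 4. PsaL (Os12g0420400), a subunit of photosystem I, averaged 5156 ± 172 normalized reads in pine1 and 3925 ± 254 in wild type (SD, n = 3 each; log2 fold change 0.40, SE 0.06, adjusted p = 0.0041). PsaN (Os12g0189400), on the inner side of the same complex, had a log2 fold change of 0.44 (SE 0.07, adjusted p = 0.0079). Lhcb1.1 (Os01g0720500) and CAB2R (Os01g0600900), chlorophyll-binding antenna proteins, rose by 1.15 (SE 0.16, adjusted p = 0.0035) and 0.51 (SE 0.08, adjusted p = 0.0045) on the log2 scale. RbcS3 (Os12g0291100), a Rubisco small subunit, rose by 0.41 (adjusted p = 0.049), a call that ended with each library left out except pine1 replicate 1 (adjusted p up to 0.141), with upper-quartile scaling (0.0501), with the filter of 5 CPM (0.0533) and with the replicate block (0.0508). The other 3 Rubisco loci tested did not pass, with log2 fold changes of 0.27 (Os12g0274700), 0.07 (Os02g0152400) and -0.25 (Os12g0292400). Leaving out a library cut the count of 18 to 9 (pine1 replicate 2), 8 (pine1 replicate 3), 6 (wild type replicate 1) and 7 (wild type replicate 3).

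The difference between the plastid-encoded and the nuclear-encoded subunits was measured within each library, a comparison chosen after the values were seen. The log2 ratio of psaC to the summed nuclear photosystem I loci differed by -0.19 between pine1 and wild type (two-sided exact permutation p = 0.40), and that of the 3 psb genes to the nuclear photosystem II loci by -0.31 (p = 0.30 by the same exact test). With 1 library left out these ran from -0.29 (without pine1 replicate 1) to -0.08 (without pine1 replicate 3) and from -0.52 (without pine1 replicate 1) to -0.21 (without pine1 replicate 2 or 3). The rise of the nuclear photosystem I group, with a median of 0.30, lies inside the 95% interval of psaC, -0.30 to 0.55. These libraries therefore do not show that plastid and nuclear subunits moved apart.

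**Figure D5:**
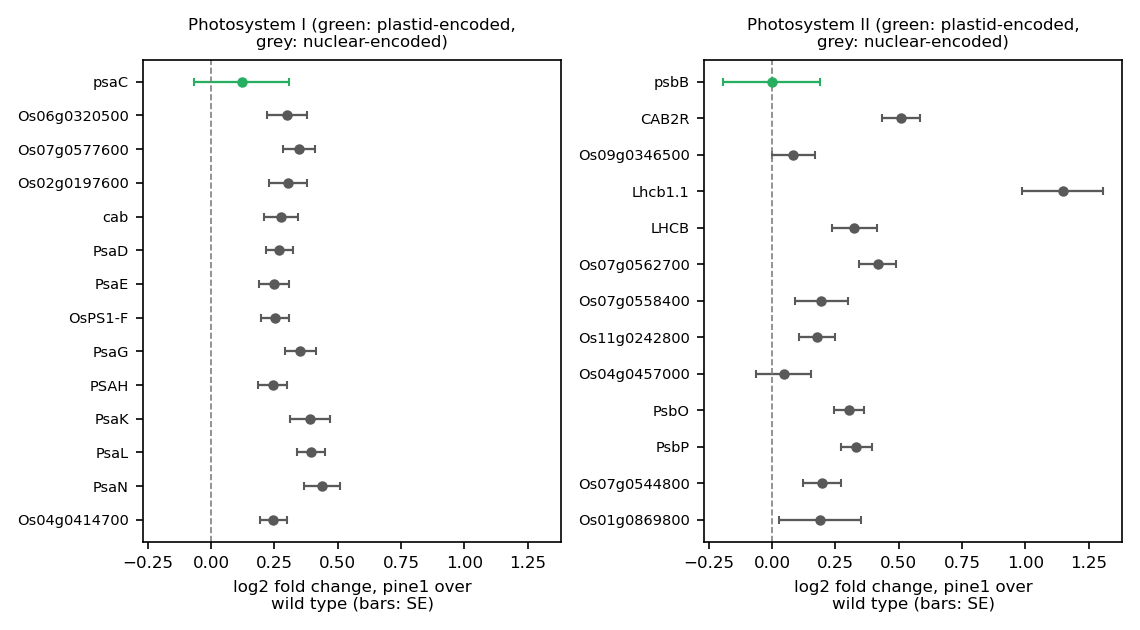
Log2 fold change of pine1 over wild type with its SE (horizontal axis) for the plastid-encoded psaC and psbB, drawn uppermost, and for nuclear-encoded loci of photosystem I (left) and photosystem II (right). The fold change of psaC is 0.12 and that of psbB -0.00078, and all nuclear loci shown lie above 0.

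The nuclear genes tested that read the organelle genomes did not pass by limma. Of 7 loci listed of sigma factors, which guide the plastid-encoded polymerase to promoters, and of phage-type RNA polymerases, 6 were in the table and tested. Os09g0132700 was not in it, and the polymerase that reads mitochondrial genes may thus be missing here. Among the 6, 0 rose and 0 fell by limma, with log2 fold changes of 0.12 to 0.32. At an unadjusted limma p under 0.05, 5 of the 6 were higher, where 20.9% of all genes tested passed in either direction, and 0 were called by edgeR. OsSIG6 (Os08g0242800), named after its values were seen, had the highest at 0.32 (adjusted p = 0.093), and passed with DESeq2 (0.0469), with the replicate block (0.0473) and without wild type replicate 3 (0.0207). The authors' deposited table of 1962 genes holds OsSIG6. Of 2 nuclear loci of mitochondrial electron transport, OsCc1 (Os05g0420600), which encodes cytochrome c, fell by 0.28 on the log2 scale (SE 0.05, adjusted p = 0.013), which leaving out wild type replicate 1 (0.0615) or 2 (0.0586) took past the threshold. The alternative oxidase locus Os04g0600200 had a log2 fold change of -0.59 (adjusted p = 0.30). Root markers stood at 218 ± 113 normalized reads in pine1 and 446 ± 125 in wild type for Os02g0662000 (adjusted p = 0.13), and at 20.8 ± 5.26 in pine1 and 6.50 ± 1.27 in wild type for Os01g0704100 (SD, n = 3 each; adjusted p = 0.032). Their part in the photosynthesis values was not tested.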

How the data were processed

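RNA of 6 libraries was sequenced. Per the submitters' processing notes, the tools were DESeq2, HTSeq, STAR and FastQC and the build was IRGSP-1.0; no source used here gives settings, strandedness or the treatment of reads with several matches. The deposited table holds a signal per gene and library: gene counts that the authors scaled by a size factor, as the values themselves show, since 100% of each library's values lie within 0.001 reads of a multiple of its smallest step. Whole reads were recovered from it. Depth was 27918842 to 36250239 reads per library. Reads carried no molecular identifiers, so intervals cover counting error only.

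Genes kept by edgeR's filterByExpr (minimum count 10) were fitted by limma with an intensity trend on log2(normalized reads + 1), a scale that understates folds of low genes, and adjusted by Benjamini-Hochberg over 24149 genes. The step was tested on simulated data. Sums and shares were compared by exact permutation tests. Alternatives were edgeR, DESeq2, other scalings, pseudocounts and filters, each library left out, and the replicate number as a block.

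Members and lists were chosen with earlier results of these data known, and nuclear loci were written from memory: of 35 photosynthesis loci, 34 are in the table. Every member is accounted for. Values per library are given for the member with the most normalized reads in each complex, for the 2 highest and 2 lowest fold changes, and for called members, of which there were 0, plus others, such as psbA and rps7-3, chosen after their values were seen. From the nuclear lists, up to 2 called loci each are named, by smallest adjusted p. RefSeq's assembly differs from the build of the counts, so it served for symbols, lengths, gene order and distances between genes alone. No coordinates are given. Other organelle genes, rbcL among them, are not analysed here. Tests ran in R 4.3.3 (limma 3.58.1, DESeq2 1.42.0, edgeR 4.0.16) and in Python 3.11.15 (scipy 1.17.1, numpy 2.4.6, pandas 2.3.3), with figures from matplotlib 3.10.9.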

Additional observations from a re-analysis of the deposited data

How the results depend on the processing

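The count of 0 organelle members called held under all 15 alternatives, with the smallest adjusted p of a member between 0.18 and 0.69 (the filter of 5 CPM kept cob alone) and 0 to 4 members at an unadjusted p under 0.05. Fold changes near 0 changed sign. PsbB was 0.011 with edgeR and 0.010 with DESeq2, and -0.15 to 0.085 with a library left out. With a library left out, cob ranged from -0.36 to 0.090, psaC from -0.0061 to 0.27 and rpl2-2 from -0.0037 to 0.32. Without the member with the most reads, the complex I sum had a log2 difference of 0.58 (-0.15 with nad4L) and that of the plastid ATP synthase 0.73 (0.24 with atpA); both then rest on members too low to be tested, and no such value could be had for complex IV, where cox3 had 0 reads in a library. The same change gave -0.75 for the plastid NDH sum (-0.53 with ndhA). For the -0.75 the exact permutation p was 0.10, the smallest possible, but pine1 replicate 1 and wild type replicate 1 were apart by a very small margin. This sum too rests on members too low to be tested. Leaving out the member with the most reads also gave -0.35 for cytochrome c maturation (-0.16 with ccmFn), 0.33 for the mitochondrial ribosome (0.05 with rps1) and -0.26 for the plastid RNA polymerase (-0.47 with rpoA). It turned the mitochondrial ATP synthase to 0.05 (-0.17 with atp6) and photosystem II to 0.05 (-0.00056 with psbB). Leaving out a library changed the sign in 8 of 11 complex sums, but not in those of the mitochondrial ATP synthase, plastid NDH and plastid RNA polymerase. Of organelle transcription loci, 1 rose with DESeq2 and 1 with the replicate block. With a library left out, 6 to 18 photosynthesis loci rose, 0 to 1 organelle transcription loci rose and 0 to 1 mitochondrial loci fell.

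Deviations of same-numbered libraries from their genotype means had correlations of 0.055, 0.022 and 0.13. Libraries of different numbers had -0.24 to 0.16. The libraries were not treated as paired, but deviations from means of 3 libraries cannot decide whether they were. The replicate block gave 1195 higher and 799 lower over all genes, against 970 and 589 without it, and called 0 members. Counts over all genes moved by more than 1.5 times without wild type replicate 1 (563 higher, 261 lower), replicate 2 (270 lower) and replicate 3 (640 higher, 384 lower).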
